A study of Mus musculus with 4 samples.

Results

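The transcripts of 40 genes of ribosome biogenesis and the nucleolus were followed in splenic B cells of 2 mutant mouse lines, before and after activation with lipopolysaccharide (LPS). The genes were chosen by name from what their products are known to do, with earlier results of these data known. All 40 were found among the 41342 named genes of the gene count table, and all 40 were among the 11286 genes that reached a mean of at least 50 counts and were tested. RNA-seq of rRNA-depleted total RNA had been made from B cells of spleen enriched by removal of CD43-positive cells, from mice of strain 129 that were homozygous for a change in the IgH 3' regulatory region, the enhancer cluster downstream of the immunoglobulin heavy chain genes. ΔleftPAL mice (labelled delta2leftPAL) lack the fragment that carries the enhancers hs3a and hs1,2 with the intervening IRIS sequence. ΔIRIS mice lack the intervening sequence but keep both enhancers, with hs3a inverted. There was 1 library from resting cells, taken fresh from the spleen, and 1 from cells cultured for 48 h with 5 µg per ml LPS in each genotype, each library from pooled B cells, of 4 animals per the labels. Activation and culture cannot be told apart. The wt libraries were not analysed here.

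Ribosomes are built mainly in the nucleolus. RNA polymerase I transcribes the precursor of the large rRNAs, box C/D and box H/ACA ribonucleoproteins guided by small nucleolar RNAs (snoRNAs) methylate and pseudouridylate it, and assembly factors cleave, fold and carry the small and the large subunit towards the cytoplasm. A resting B cell is small with a modest nucleolus. After LPS it grows, divides and turns to antibody secretion, which calls for many new ribosomes.

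Library totals lay between 23621743 and 29778717 counts. Levels are given as CPM, which express the counts of a gene relative to the total of its library, scaled by the TMM method over the tested genes, and changes as log2 ratios of CPM plus 0.5. All 5 B cell markers reported here (Cd79a, Cd79b, Ms4a1, Cd22 and Pax5) were well above the floor of 3 counts in every library, and their sum was 3313 and 1795 CPM in ΔleftPAL cells (resting, then LPS) and 2775 and 1908 CPM in ΔIRIS cells. The resting libraries also held RNA of other blood cells. The sum of 6 erythroid markers was 43280 and 30105 CPM at rest against 56.1 and 117 CPM after LPS. The sum of 7 myeloid markers was 378 and 498 CPM at rest against 13.6 and 18.8 CPM after LPS. All 6 T cell markers were above 3 counts at rest (21.4 and 26.8 CPM in sum), and all 6 were at or under 3 counts after LPS, 4 of them at 0. The 3 NK cell markers summed to 6.56 and 5.46 CPM at rest, and each was at or under 3 counts after LPS. The sum of 4 plasma cell markers went from 280 and 256 CPM to 948 and 566 CPM. These changes in cell makeup move with every LPS comparison below, and their part in the results was not tested. Each value is a share of a library, so that more cells of a type and more RNA per cell cannot be told apart.

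LPS activation was compared with the resting state first. The 40 genes together took 0.260% of the counts of the resting ΔleftPAL library and 0.712% after LPS, and 0.295% and 0.839% in ΔIRIS cells. In edgeR's quasi-likelihood test over all 4 libraries, with genotype as a block and Benjamini-Hochberg adjustment over all genes tested, 39 of the 40 genes rose (adjusted p under 0.05) and 0 fell. Of all genes tested, 31.3% were called higher and 31.4% lower. At an unadjusted p under 0.05 all 40 were higher, as were 33.6% of all genes tested. The test has 1 residual degree of freedom, and its spread is that between 2 pools of different genotype. The median change of the 40 genes was 1.19 (log2, 2.28-fold) in ΔleftPAL and 1.31 (2.47-fold) in ΔIRIS cells, where the median of all genes tested was 0.0028 and -0.026. At least 2-fold increases were seen for 27 of the 40 genes in ΔleftPAL and 29 in ΔIRIS cells, against 17.3% and 17.8% of all genes tested. In TPM these counts were 18 and 24, against 12.9% and 13.4% of 10805 genes. In the plot of CPM by library, both LPS libraries lie to the right of both resting libraries for all 40 genes.

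**Figure D1:**
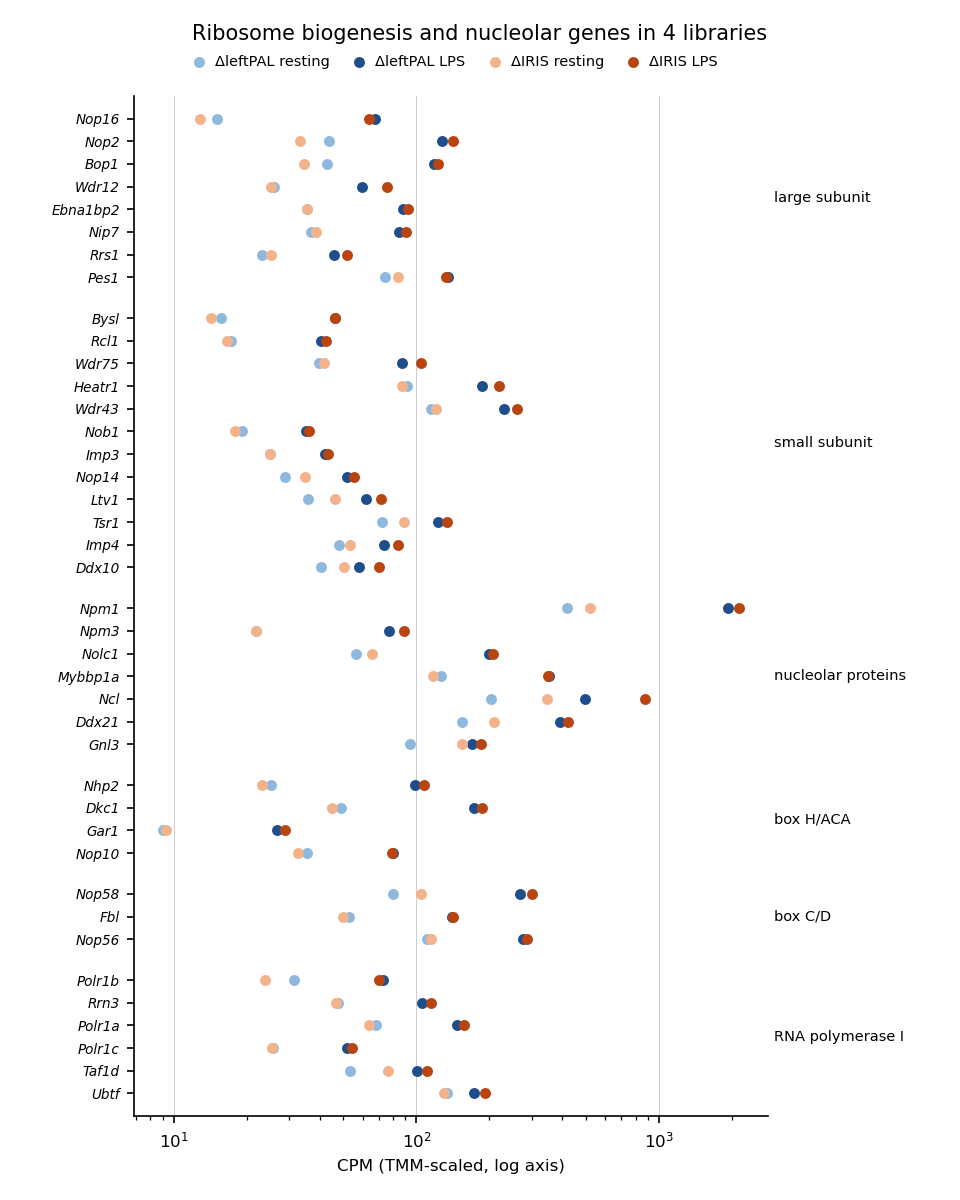
CPM of the 40 genes in the 4 libraries on a log axis, grouped by role. Each point is 1 library. For each gene, both LPS libraries (dark points) lie above both resting libraries (pale points), with the smallest gap for Gnl3, 154.3 CPM in resting ΔIRIS cells against 170.0 CPM in LPS-activated ΔleftPAL cells.

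The start regions of 4 of these genes are shown because their values stand at the ends of the comparisons that follow: Nop16 had the largest change with LPS in ΔIRIS cells, Ncl the largest difference between genotypes, and Nop2 the response that grew most from ΔleftPAL to ΔIRIS, while Rrn3 carries 2 copies of the E-box CACGTG, the sequence bound by Myc and related factors. Each line gives the 250 bases before the start site, 5′ to 3′ on the strand of the gene, from RefSeq on GRCm38.p6, with the E-box in capitals. They lie at chr16:13780449-13780698 (plus strand, Rrn3), chr6:125131633-125131882 (plus strand, Nop2), chr13:54590075-54590324 (minus strand, Nop16) and chr1:86359456-86359705 (minus strand, Ncl).
Rrn3: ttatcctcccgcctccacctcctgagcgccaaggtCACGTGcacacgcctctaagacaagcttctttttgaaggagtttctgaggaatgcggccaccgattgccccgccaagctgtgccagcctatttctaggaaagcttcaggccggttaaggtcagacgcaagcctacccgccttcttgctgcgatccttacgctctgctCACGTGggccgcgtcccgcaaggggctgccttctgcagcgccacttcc
Nop2: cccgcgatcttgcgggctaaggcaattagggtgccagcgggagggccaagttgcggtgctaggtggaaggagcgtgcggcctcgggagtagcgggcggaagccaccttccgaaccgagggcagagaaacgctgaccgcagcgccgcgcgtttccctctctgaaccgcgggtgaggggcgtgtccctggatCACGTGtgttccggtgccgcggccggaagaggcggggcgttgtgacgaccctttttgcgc
Nop16: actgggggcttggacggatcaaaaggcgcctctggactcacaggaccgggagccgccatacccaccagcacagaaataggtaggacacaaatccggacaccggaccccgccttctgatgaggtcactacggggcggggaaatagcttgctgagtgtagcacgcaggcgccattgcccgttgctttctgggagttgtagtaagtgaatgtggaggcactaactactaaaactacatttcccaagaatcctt
Ncl: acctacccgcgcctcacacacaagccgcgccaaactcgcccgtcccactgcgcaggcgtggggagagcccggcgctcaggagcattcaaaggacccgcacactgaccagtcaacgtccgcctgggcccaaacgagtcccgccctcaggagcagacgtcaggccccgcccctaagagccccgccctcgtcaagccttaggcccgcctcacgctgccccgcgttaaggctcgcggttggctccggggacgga
The E-boxes of Rrn3 begin 215 and 48 bases before the start site and that of Nop2 60 bases before it. No CACGTG is found in the windows of Nop16 and Ncl, which says only that these letters are not there. The motif reads the same on both strands. In windows from 250 bases before to 50 bases after the start, it was present in 8 of the 36 genes with a RefSeq window (Imp4, Ltv1, Mybbp1a, Nop2, Pes1, Rrn3, Tsr1 and Wdr43), that is 22.2%, against 8.09% of 27025 mouse genes and 12.4% of the 7968 tested genes with a window. Fbl, Npm1, Bop1 and Rrs1 had no entry. The 8 genes with the motif had a median change with LPS of 0.93 in ΔleftPAL and 0.89 in ΔIRIS cells, and the 28 without it 1.20 and 1.32. Myc itself fell with LPS, from 88.6 to 40.3 CPM in ΔleftPAL and from 79.2 to 39.3 CPM in ΔIRIS cells (log2 change -1.07 ± 0.12 SE, adjusted p = 0.0026, edgeR).

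Among genes of RNA polymerase I, 6 of 6 rose, with a median change of 1.05 in ΔleftPAL and 1.18 in ΔIRIS cells. Polr1b, the second largest subunit of the enzyme, went from 31.3 to 72.8 CPM in ΔleftPAL and from 23.8 to 70.2 CPM in ΔIRIS cells (in TPM its log2 change in ΔleftPAL cells was 0.52, against 1.20 in CPM). The changes of the largest subunit Polr1a were 1.09 and 1.29, and those of Polr1c, a subunit shared with RNA polymerase III, 1.00 and 1.08. Rrn3 (TIF-IA), the factor that makes the polymerase competent for initiation and responds to growth signals, went from 47.6 to 105.1 CPM and from 46.5 to 115.3 CPM. Ubtf, which keeps rDNA in an open state, went from 133.8 to 172.9 CPM and from 130.0 to 191.9 CPM. This was the smallest of the 40 changes in ΔleftPAL cells (log2 0.37 and 0.56, adjusted p = 0.029 in edgeR). In TPM, Ubtf barely moved in ΔleftPAL cells, from 64.3 to 67.6 (log2 0.07), and went from 58.8 to 75.2 in ΔIRIS cells. Taf1d, a subunit of the promoter selectivity factor SL1, went from 53.2 to 100.9 CPM and from 76.2 to 110.9 CPM.

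A list of other ribosome assembly genes, chosen by function and also with earlier results known, held 9 further genes of RNA polymerase I. Of these 3 of 9 rose (Polr1d, Polr1e and Cd3eap), a share near the 31.3% of all genes tested that were called higher. The medians of the 9 were 0.18 in ΔleftPAL and 0.02 in ΔIRIS cells. The changes were 1.58 and 1.67 for Cd3eap and 0.99 and 1.64 for Polr1e, both subunits or partners of the enzyme. The 3 further SL1 subunits on the list were not called: Taf1a had changes of -0.46 and 0.02, Taf1c of -0.44 and -0.26, and Taf1b of -0.32 and -0.09. The subunit genes Twistnb and Znrd1 and the termination factor Ttf1 were not called either.

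The genes of the 3 core proteins of box C/D particles among the 40 rose, with median increases of 2.62-fold and 2.83-fold. Nop58 went from 80.2 to 267.8 CPM in ΔleftPAL and from 104.3 to 300.7 CPM in ΔIRIS cells, Nop56 from 110.5 to 273.8 CPM and from 115.4 to 284.8 CPM, and the methyltransferase fibrillarin (Fbl) from 52.9 to 139.7 CPM and from 49.9 to 142.2 CPM. In TPM, a unit per transcript length that allows genes to be compared, Nop58 and Nop56 lay above Fbl in all 4 libraries over all transcript types (Fbl 62.2, 152, 59.3 and 156, Nop56 124, 299.9, 149 and 290.3, in the order resting and LPS ΔleftPAL, resting and LPS ΔIRIS). In transcripts annotated as coding alone, this order did not hold at rest. In resting ΔleftPAL cells Nop56 had 59.0 and Nop58 51.96 coding TPM against 62.2 for Fbl. In resting ΔIRIS cells Nop56 had 51.2 and Nop58 63.1 against 59.3 for Fbl. After LPS the coding transcripts of Nop56 and Nop58 were above Fbl in both genotypes. Of 8 further box C/D genes 7 rose, among them Nhp2l1, the remaining core protein (1.30 and 1.43), with the AAA+ ATPases Ruvbl1 (1.74 and 1.76) and Ruvbl2 (1.68 and 2.24) at the top and Pih1d1 (0.40 and 0.59) lowest among those called. The assembly factor Nufip1 was not called (0.42 and -0.16).

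The genes of all 4 core proteins of box H/ACA particles rose, and their medians of 1.66 and 1.81 were the highest among the 6 role groups. Nhp2 went from 25.3 to 98.6 CPM in ΔleftPAL and from 23.0 to 107.3 CPM in ΔIRIS cells. Dkc1, the pseudouridine synthase, which is also part of telomerase, went from 48.7 to 173.2 CPM and from 45.0 to 186.2 CPM. Gar1 had the lowest CPM of the 40 genes in each library (9.05, 26.6, 9.32 and 28.8) and rose 2.83-fold and 2.99-fold, and Nop10 had changes of 1.17 and 1.26. The spread between these genes widened with LPS: their levels lay between 32.4 and 46.8 TPM in resting ΔleftPAL cells and between 79.7 and 130 TPM after LPS. The assembly factors Naf1 (0.62 and 0.87) and Shq1 (1.02 and 1.21) rose too.

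Of 7 genes of nucleolar proteins 6 rose, with medians of 1.47 and 1.56. Npm1 (nucleophosmin), a chaperone that fills the outer layer of the nucleolus, went from 415.6 to 1921 CPM in ΔleftPAL and from 519.7 to 2139 CPM in ΔIRIS cells, a 4.62-fold and 4.11-fold increase (edgeR log2 2.12 ± 0.12 SE, adjusted p = 9.1e-04). It accounted for 15.8% and 17.0% of the counts of the 40 genes at rest and 27.1% and 26.6% after LPS. Its relative Npm3 went from 21.8 to 77.1 CPM and from 21.9 to 88.9 CPM. Nolc1, a nucleolar partner of both snoRNA particles, had changes of 1.82 and 1.66, and Mybbp1a, which holds back RNA polymerase I and binds Myb, changes of 1.47 and 1.56. The RNA helicase Ddx21 went from 153.9 to 390.5 CPM and from 209.7 to 423.0 CPM.

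Nucleolin (Ncl), a chaperone of the rRNA precursor, went from 202.8 to 496.8 CPM in ΔleftPAL and from 344.2 to 874.6 CPM in ΔIRIS cells. Its changes in CPM were nearly equal, 1.29 and 1.34. In TPM they were 0.82 and 1.02. Its transcripts annotated as coding increased 1.195-fold and 1.63-fold in TPM, and its other transcripts 1.96-fold and 2.13-fold. In unscaled estimated counts the long coding transcript (8202 nt) went from 2776 to 5520 and from 4815 to 10209. Most of the other estimated counts fell to a transcript of 3072 nt with a retained intron, which lies within the span of the coding one. The split thus rests on how reads shared by these transcripts were assigned. Gnl3 (nucleostemin), a GTP-binding protein of stem and dividing cells, was the single gene of the 40 not called. It measured 94.5 CPM at rest and 170.0 CPM after LPS in ΔleftPAL cells, and 154.3 and 185.2 CPM in ΔIRIS cells. Both LPS values were above both resting values, but the change in ΔIRIS cells was small (log2 0.84 and 0.26; edgeR 0.55 ± 0.18 SE, adjusted p = 0.053). Over the 10 alternative normalizations, filters, tests and tables its adjusted p ran from 0.017 to 0.12 and was under 0.05 in 8.

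All 12 small-subunit factors rose, but with medians of 0.85 and 0.89 they made the group with the smallest changes. The largest change belonged to Bysl (bystin), from 15.7 to 46.4 CPM in ΔleftPAL and from 14.2 to 46.3 CPM in ΔIRIS cells, followed by Rcl1 (1.20 and 1.32) and by Wdr75 (1.13 and 1.31), Heatr1 (1.02 and 1.33) and Wdr43 (0.99 and 1.11), the last 3 of which belong to the subcomplex that first binds the nascent precursor. In TPM, which counts all transcript types by length, the changes of Wdr75 were 0.18 and 0.66. Its coding transcripts alone increased 4.00-fold and 3.26-fold in TPM, while its other transcripts went to 0.48 and 0.73 times their resting level. Nob1, the nuclease that makes the last cut of 18S rRNA, had changes of 0.86 and 0.99, Imp3 of 0.74 and 0.78, and Nop14 of 0.84 and 0.66. By the mean of both genotypes the lowest were the export and late assembly factors Ltv1 (0.80 and 0.62) and Tsr1 (0.76 and 0.59), Imp4 (0.60 and 0.64), which acts with Imp3 at the U3 snoRNA, and the helicase Ddx10, which went from 40.4 to 58.3 CPM and from 50.5 to 70.0 CPM (0.52 and 0.47, adjusted p = 0.019 in edgeR). Of 43 further genes of this branch 35 rose and 1 fell. Pno1 (2.05 and 1.75), which works beside Nob1, and Cirh1a (1.72 and 1.63) rose most. The kinase Riok3 fell from 117.2 to 80.6 CPM and from 134.6 to 75.9 CPM (adjusted p = 0.012), and the related Riok1 was not called (0.20 and -0.04).

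All 8 large-subunit factors rose, with median increases of 2.37-fold and 2.76-fold. Nop16 went from 15.01 to 67.4 CPM in ΔleftPAL and from 12.8 to 63.8 CPM in ΔIRIS cells, a 4.38-fold and 4.84-fold increase, so that the LPS libraries stood far above both resting ones (edgeR log2 2.24 ± 0.13 SE, adjusted p = 9.2e-04). Nop2, an rRNA cytosine methyltransferase, went from 43.5 to 127.3 CPM and from 33.0 to 142.1 CPM. The partners of the PeBoW complex differed in their changes: Bop1 had 1.45 and 1.82, Wdr12 1.19 and 1.56, and Pes1 0.86 and 0.66. Ebna1bp2 (1.30 and 1.37), Nip7 (1.19 and 1.22) and Rrs1 (0.98 and 1.03), factors of early and middle large-subunit particles, changed to a like extent in both genotypes. Of 54 further genes of this branch 38 rose and 2 fell. Rrp1b (2.02 and 2.14) and Rpf2 (1.64 and 1.85), the partner of Rrs1 in loading 5S rRNA, rose most. Gltscr2 fell from 214.7 to 170.4 CPM and from 225.3 to 151.6 CPM (adjusted p = 0.034), and Zfp622, a late cytoplasmic factor, from 53.3 to 42.8 CPM and from 65.9 to 38.8 CPM (adjusted p = 0.036). Neither was called with TMM over all rows (adjusted p = 0.078 and 0.060) or with kallisto estimated counts (0.071 and 0.077).

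Of 14 genes of the RNA exosome, its partners and other nucleases that trim rRNA precursors or degrade their spacers, 12 rose. The largest changes were those of Exosc2 (1.59 and 1.71) and Mphosph6 (1.72 and 1.60). Exosc10 (0.21 and 0.24) and the nuclease Xrn2 (-0.25 and -0.25) were not called. Over all 130 further assembly genes 97 rose, 3 fell and 30 were not called, with medians of 0.79 and 0.87.

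**Figure D2:**
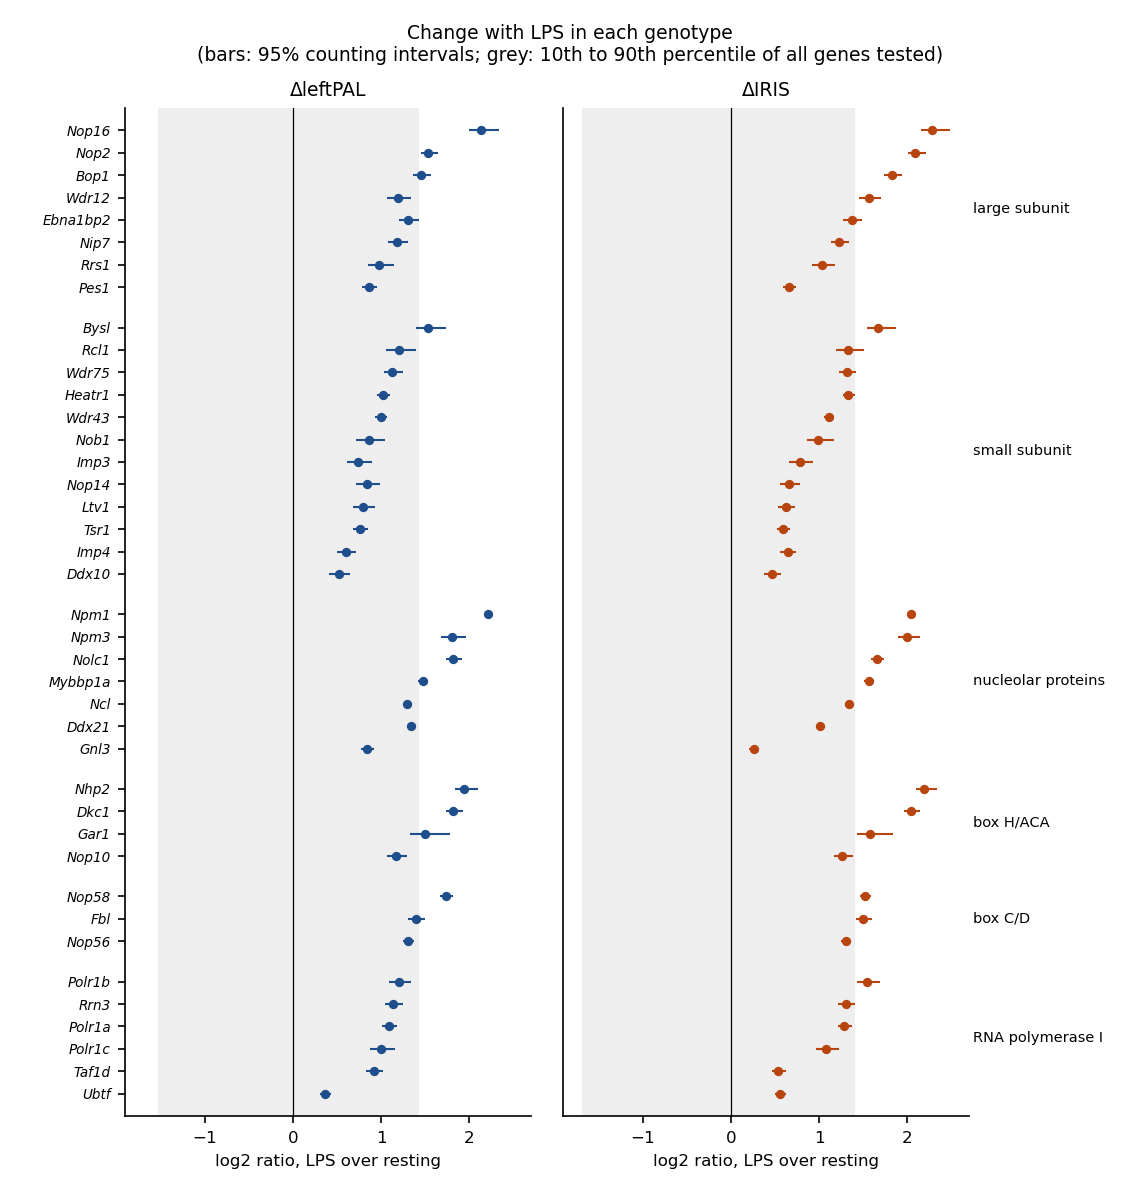
Log2 ratio of LPS over resting for the 40 genes in ΔleftPAL (left) and ΔIRIS cells (right), by role. Bars are 95% Clopper-Pearson intervals of the ratio, which cover counting error only, and the grey band holds the 10th to 90th percentile of all genes tested, -1.52 to 1.42 in ΔleftPAL and -1.68 to 1.396 in ΔIRIS cells. All 40 ratios are above 0, from 0.37 to 2.21 on the left and from 0.26 to 2.28 on the right.

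ΔIRIS was then compared with ΔleftPAL, which asks what the loss of hs3a and hs1,2 adds to the broken palindrome. With 1 library per genotype and condition no test of genotype within a condition is possible, a genotype effect averaged over both conditions was not tested, and the 95% intervals below cover counting error only. At rest the 40 genes had a median log2 ratio of ΔIRIS over ΔleftPAL of 0.0061, and 21 were above 0, against 50.5% of all genes tested. After LPS the median was 0.12, and 34 were above 0, against 49.2%. Under the other scalings the latter count lay between 29 in TPM, where 41.6% of all genes were above 0, and 39 with library totals, where 58.5% were. A difference of at least 1.5-fold upwards was reached by 2 of the 40 genes at rest (Ncl and Gnl3) and by 1 after LPS (Ncl), where 6.86% and 1.75% of all genes tested reached it. For 0 genes was the level at least 1.5-fold lower, against 4.24% and 4.78%. In TPM, Gnl3 was the single gene at least 1.5-fold higher at rest and Polr1b was at least 1.5-fold lower (-0.70). Marker sums differed between the genotypes too: at rest 43280 CPM (ΔleftPAL) against 30105 CPM (ΔIRIS) for erythroid and 378 against 498 CPM for myeloid markers, and after LPS 948 against 566 CPM for plasma cell markers. Their part in these ratios was not tested.

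Ncl had the highest ratio of the 40 genes in both conditions, though its interval at rest overlapped that of Gnl3, and in TPM its ratio at rest (0.55) was below that of Gnl3 (0.72) and under 1.5-fold. Its level was 344.2 CPM in resting ΔIRIS against 202.8 CPM in resting ΔleftPAL cells, and 874.6 against 496.8 CPM after LPS. The ratio was 1.70-fold at rest (log2 0.76, interval 0.71 to 0.81) and 1.76-fold after LPS (0.82, interval 0.79 to 0.85). Of all genes tested, 0.496% were at least 1.5-fold higher in ΔIRIS cells in both conditions. The gene lies at chr1:86344719-86359400 on the minus strand (GRCm38, GENCODE M21). Around it, 22 other genes tested had their start within 1000 kb, and their median ratios were 0.039 at rest and 0.058 after LPS. Of these, 1 was at least 1.5-fold higher in both conditions, Snord82, a snoRNA gene inside Ncl, whose 2 ratios were 1.66 and 0.64. The neighbour B3gnt7 had ratios of opposite sign, 1.53 at rest and -1.01 after LPS. Among the transcripts of Ncl, both that took most of its estimated counts were higher in ΔIRIS cells: the long coding one (ENSMUST00000027438, 8202 nt) 1.49-fold at rest and 1.68-fold after LPS, and one annotated with a retained intron (ENSMUST00000185676, 3072 nt) 2.09-fold and 1.85-fold, as ratios of estimated counts scaled by library.

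**Figure D3:**
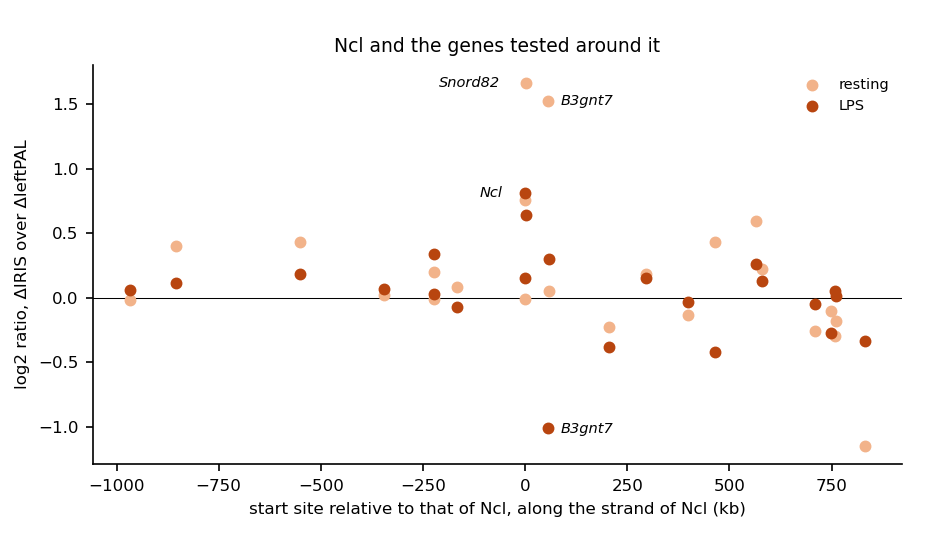
Log2 ratio of ΔIRIS over ΔleftPAL at rest (pale) and after LPS (dark) for Ncl and the 22 other genes tested within 1000 kb, by distance of the start site from that of Ncl in kb along the strand of Ncl. Each point is a ratio of 2 libraries. Ncl lies at 0.76 and 0.82, and the medians of the other genes are 0.039 and 0.058.

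At rest Gnl3 (0.70, interval 0.63 to 0.78) and Taf1d (0.52, interval 0.42 to 0.62) followed Ncl, and Nop2 (-0.39, interval -0.53 to -0.27), Polr1b (-0.39, interval -0.55 to -0.24) and Bop1 (-0.32, interval -0.45 to -0.20) were at the lower end. After LPS these differences were smaller. The genes were picked by their ratios at rest, which by itself favours smaller ratios in the other condition. The ratio was 0.12 for Gnl3, 0.13 for Taf1d, 0.16 for Nop2, -0.05 for Polr1b and 0.06 for Bop1. After LPS the highest ratios below that of Ncl were those of Wdr12 (0.33, interval 0.24 to 0.42) and Ddx10 (0.26, interval 0.17 to 0.36), and the lowest those of Nop16 (-0.08), Polr1b and Pes1 (-0.03), all 3 with intervals that include 0.

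The change with LPS differed between the genotypes for some members. It was larger in ΔIRIS cells for 28 of the 40 genes and for 5300 of the 11286 genes tested. The median difference in log2 change was 0.083 for the 40 genes and -0.025 for all genes tested. Such small differences depend on the scaling: library totals moved the median change of all genes by 0.027 in ΔleftPAL and 0.11 in ΔIRIS cells. The count under other scalings is not given here. For 0 of the 40 genes, against 2.92% of all genes tested, did the genotypes move in opposite directions with both counting intervals clear of 0. The difference, ΔIRIS minus ΔleftPAL, was -0.58 for Gnl3, 0.55 for Nop2 and -0.38 for Taf1d, the 3 of largest size. For Nop2 the LPS values were 127.3 and 142.1 CPM and the resting values 43.5 and 33.0 CPM, so that the genotypes stood in opposite order in the 2 conditions. No test of these differences is possible with these libraries.

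The 8 members that have snoRNA genes inside them, 29 in all (Taf1d 8, Nop56 5, Nop58 4, Ncl, Gnl3 and Wdr43 3 each, Tsr1 2 and Dkc1 1), had ratios above 0 at rest in 7 cases. Their median ratio of ΔIRIS over ΔleftPAL was 0.34 at rest, from -0.11 for Dkc1 to 0.76 for Ncl, and that of the 32 other members was -0.03. After LPS the medians were 0.13 and 0.10. This grouping was made after the values were seen, and it is given without a test. The snoRNA genes inside Taf1d held 2646 and 6705 counts before and after LPS in ΔleftPAL and 3267 and 8800 counts in ΔIRIS cells, those inside Gnl3 173 and 144, and 285 and 192 counts. Reads of an unspliced host intron and of a snoRNA gene within it share positions.

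**Figure D4:**
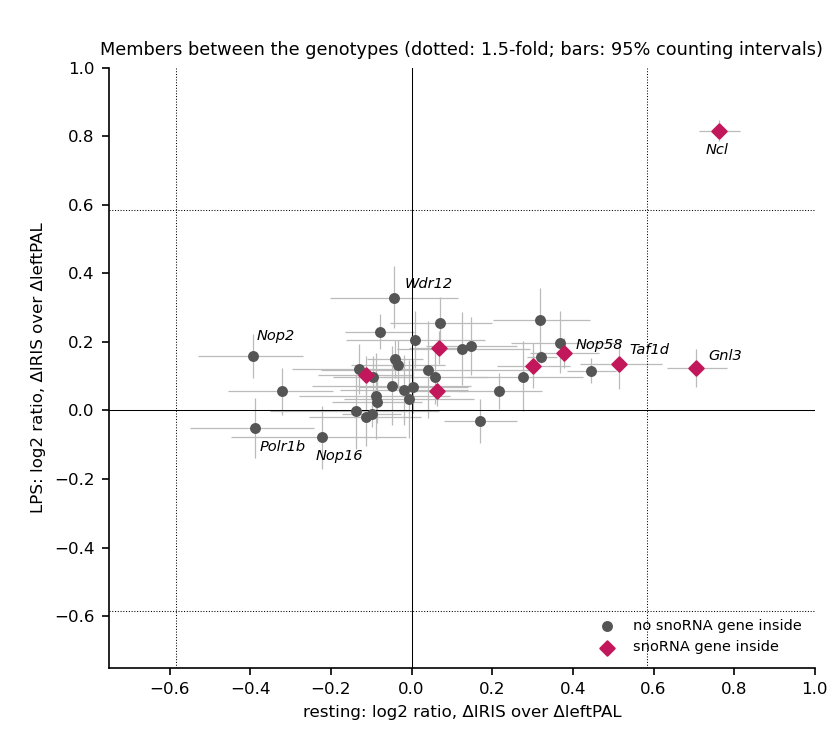
Log2 ratio of ΔIRIS over ΔleftPAL at rest (x axis) and after LPS (y axis) for the 40 genes, with 95% counting intervals. Diamonds are the 8 members with snoRNA genes inside and dotted lines mark 1.5-fold. Ncl is the single gene beyond 1.5-fold on both axes (0.76 and 0.82), and Gnl3 (0.70) is beyond it on the x axis alone. In TPM, not plotted, Ncl is under 1.5-fold at rest (0.55).

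Transcript types were compared next. The annotation lists 177 transcripts of the 40 genes in the estimates, of which 83 are protein coding, 53 retain an intron, 22 are other processed transcripts and 19 are targets of nonsense-mediated decay. For 19 members at least 5% of the gene's TPM, as a mean over the 4 libraries, fell to transcripts not annotated as coding. In 16 of these 19 that share was lower in the LPS than in the resting library of both genotypes, where it was lower in 68.5% of 5409 tested genes with such a share. The median share of the 19 went from 48.1% to 24.7% in ΔleftPAL and from 46.0% to 23.5% in ΔIRIS cells, and that of the 5409 genes from 33.9% to 24.1% and from 32.6% to 21.6%. In estimated counts in place of TPM the count was 17, against 69.6% of the same 5409 genes. The fall was thus the more common direction among all genes as well, and no test was made of the members' count.

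Wdr75 showed the widest shift in ΔleftPAL cells, from 81.4% to 34.3% in ΔleftPAL and from 66.1% to 30.3% in ΔIRIS cells. Mybbp1a went from 36.4% to 13.9% and from 39.1% to 13.2%, Nob1 from 48.0% to 24.7% and from 61.5% to 21.2%, and Wdr12 from 48.8% to 21.3% and from 46.0% to 18.9%. In these genes both LPS libraries lay below both resting libraries. Nop58 moved little, from 50.4% to 42.8% and from 49.9% to 40.4%. The share was higher after LPS in both genotypes for Ncl, from 74.5% to 82.8% and from 79.7% to 83.7%. For Imp4 the direction turned with the unit: its share went from 77.8% to 79.4% and from 74.5% to 78.3% in TPM, but from 34.4% to 31.0% and from 30.9% to 29.2% in estimated counts. The share moved in opposite directions for Ebna1bp2. Shares in TPM weigh short transcripts more than their reads, and the kallisto estimates carry no error here.

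**Figure D5:**
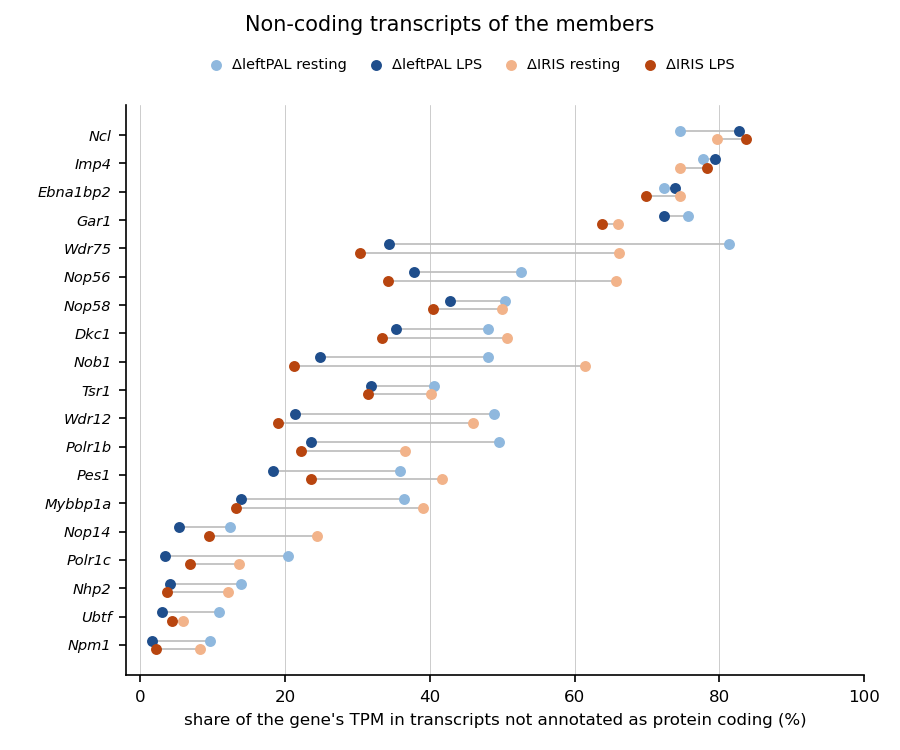
Share of the gene's TPM in transcripts not annotated as protein coding, in percent, for the 19 members with a mean share of at least 5%. Points are libraries and grey lines join the resting and the LPS library of a genotype (upper line ΔleftPAL, lower line ΔIRIS). The share is lower after LPS in both genotypes for 16 of 19 genes, and higher in both for Ncl and Imp4.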

How the data were processed

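The 4 libraries of splenic B cell RNA stand for 1 genotype and condition each. The authors mapped paired 150-nt reads with STAR 2.4.0a to mm10 (GRCm38) using Ensembl release 77 annotation, and deposited raw gene counts from featureCounts (Subread 1.4.6-p1). They also deposited kallisto 0.42.3 estimated counts and TPM values for 88198 transcripts; the index is not given in the sources used here. The labels state pools of 4 animals per genotype, while the paper's methods describe 2 pooled RNAs of 2 samples each and a legend 3 mice per genotype; which holds for these libraries is not settled. The counts of the 40 genes were 0.779 to 1.13 times the estimated counts summed per gene (median 0.992). A row without a gene name, at most 0.0264% of a library, was left out of the tests.

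Genes whose mean reached 50 counts were tested with edgeR 4.0.16 (quasi-likelihood, additive genotype and condition) in R 4.3.3. TMM factors came from the tested genes, because factors over all rows move the median LPS ratio of all tested genes by 0.12 (ΔleftPAL) and 0.15 (ΔIRIS). Ratios used CPM plus 0.5 in Python 3.11.15 (scipy 1.17.1), which understates changes of low genes, with 95% Clopper-Pearson intervals. Estimated counts were rounded for the edgeR alternative. Transcript types and positions came from GENCODE M21 by identifier. On simulated data for the LPS comparison (11286 genes), 76 of 100 genes changed 2-fold and 100 of 100 changed 4-fold were called, with 14 of 11086 unchanged genes. The simulation gave all genes the same dispersion (0.025), no genotype effect and no difference in response between the genotypes. It therefore does not give the rate of false calls in these data. The members and lists were chosen with earlier results of these data known. The text names every member, the 3 highest and lowest between genotypes, the 3 largest differences in response, the 2 highest and lowest of each list of further genes with all that fell, and Myc. Genes named beyond this were chosen after their values were seen. DESeq2 1.42.0 gave an alternative test and size factors. The value of 1 B cell marker is not reported here.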

Additional observations from a re-analysis of the deposited data

Results flagged for a closer look

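Of the 130 further assembly genes, 4 moved in opposite directions with LPS in the 2 genotypes, with counting intervals that exclude 0 in each. All 4 rose in ΔleftPAL and fell in ΔIRIS cells. The difference between the genotypes was not tested, since each has 1 library per condition. For Nufip1, a box C/D assembly factor, the log2 change was 0.42 in ΔleftPAL and -0.16 in ΔIRIS cells, a difference of -0.58. For Rpf1 it was 0.36 and -0.15 (difference -0.51), for Cebpz 0.28 and -0.15 (difference -0.43), and for Twistnb, an RNA polymerase I subunit, 0.18 and -0.20 (difference -0.38). In all 4 genes the resting ΔIRIS library held the highest level. The choice of these genes leaves only that library or the LPS ΔleftPAL library for the highest level. Of the 40 members 0 moved in opposite directions in this way, and of all 11286 genes tested 2.92% did, in either order of the genotypes. The 4 of 130 are thus near the share of all genes tested.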

How the results depend on the processing

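The number of the 40 genes called higher with LPS was 39 or 40 under every alternative (library totals, DESeq2 size factors, TMM without immunoglobulin genes or over all rows, 3 other count filters, no genotype block, kallisto estimated counts and DESeq2's Wald test), and 0 were called lower. Without the genotype block 39 were called. Of the further assembly genes 90 to 105 were called higher, and those called lower were 1 with TMM over all rows and 1 with kallisto estimated counts, against 3. TMM over all rows was added after the data were seen. The median change with LPS in ΔleftPAL cells was 1.31 with TMM over all rows, 1.07 with a prior of 5 CPM and 0.96 in TPM. In ΔIRIS cells it was 1.42 with library totals, 1.46 with TMM over all rows, 1.42 with estimated counts and 1.11 in TPM. The median of all genes tested moved to -0.20 and -0.18 in TPM. At least 4-fold increases were seen for 2 and 5 genes (4.80% and 4.63% of all genes tested). Between genotypes at rest, 1 gene was at least 1.5-fold higher (Gnl3, where Ncl lost its place) and 1 lower (Polr1b) in TPM, against 4.91% and 5.96% of all genes. At least 25% higher were 7 at rest (17.7% of all genes tested) and 2 after LPS (6.41%), and at least 20% lower 2 at rest (14.7%) and 0 after LPS (12.1%). At 2-fold 0 were higher at rest (1.89%) and 0 after LPS (0.496%). The median of the 40 genes between genotypes at rest turned to -0.027 with library totals and -0.061 in TPM, as that of all genes tested went to -0.028 and -0.056. The cause of the other shifts was not tested. Of 560 alternative values of single members with LPS, 0 changed sign. Between genotypes, 6 of the 40 genes changed sign in at least 1 alternative scaling or table at rest and 11 after LPS, among them Pes1 and Polr1b. Ncl lay between 0.55 and 0.76 at rest and between 0.75 and 0.87 after LPS. Leaving out a library leaves the additive fit no residual degree of freedom, and was not run.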
